A study of Mus musculus with 6 samples.

Results

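Sox11, Sox4, Dcx, Igfbpl1, Ccnb1, Mki67, Top2a and Eomes are genes of immature neurons and of dividing cells, and their transcripts were followed here across coronal sections of the mouse brain at 3 ages. They are 8 of the 32285 genes listed. They had been picked because several of them were lower in older than in young whole sections, so their difference between ages is described below and carries no test, while their position within the sections was not used to choose them. The animals were males of the inbred strain C57BL/6J, aged 6 months (young), 18 months (middle) or 21 months (old), and the labels name no transgene, allele or treatment. Each age has 2 sections, and since the labels also give 2 males for each age, sections were treated as separate animals. Sections were cut at 16 micrometres near bregma -1.655 mm, a level that holds cortex, hippocampus, thalamus, hypothalamus and the ventricles but not the olfactory bulb. Middle 2 and old 2 were on slide 2 and the other 4 sections on slide 1. No young section was on slide 2, which confounds slide with age in part.

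New neurons are added to the adult rodent brain in a pair of places. Stem cells beside the lateral ventricle give rise to neuroblasts that migrate to the olfactory bulb, and stem cells at the inner edge of the granule cell layer of the dentate gyrus give rise to granule neurons of the hippocampus. Progenitors divide, then express transcription factors such as Eomes, and their daughters express the transcription factors Sox4 and Sox11 and the microtubule-binding protein doublecortin (Dcx) while they migrate and grow processes. Oligodendrocyte precursors, which are spread through grey and white matter, are the other main dividing cells of the adult brain.

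Transcripts were captured on a grid of barcoded Visium spots, each of which can hold several cells of different types. Each unique molecular identifier (UMI) stands for 1 captured molecule, and levels are given as CPM, the UMIs of a gene per 1000000 UMIs of the same spots. A total of 16741 spots were kept. Section totals ran from 60938938 to 77557934 UMIs, and the median per spot from 20370 in old 2 to 30093 in young 1, with both old sections below the other 4. Intervals are 95% exact Poisson limits and cover counting error only. Of the 3389 spot barcodes, 1920 occurred in all 6 sections, because the slides share 1 set of barcodes. All 15 ependymal, 10 choroid plexus and 10 dentate granule cell markers had UMIs in every section.

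Spots near the ventricle wall and in the dentate gyrus were picked with genes that are none of the 8. A ventricle wall spot was among the 3% of all spots with the largest share of UMIs in the ependymal markers, which are genes of the ciliated cells that line the ventricles (Foxj1, Ccdc153, Tmem212 and others). A dentate gyrus spot was chosen likewise with granule cell genes (Prox1, C1ql2, Dsp and others). This gave 493 ventricle wall spots, between 59 and 115 per section, and 494 dentate gyrus spots, between 71 and 108 in 5 sections but 33 in young 1. Each set held 2.84% of all UMIs. UMIs were summed over the spots of each place in each section and compared with all other spots by edgeR's quasi-likelihood test with section as a block. Genes with an adjusted p (Benjamini-Hochberg, over all genes tested) under 0.05 are said to be called. These places differ broadly from the rest of the section: 69.7% of 12687 genes were called at the ventricle wall (35.2% higher and 34.5% lower) and 42.7% in the dentate gyrus (22.1% and 20.6%), against which the calls below have to be read.

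Mki67 encodes the Ki-67 protein of the surface of mitotic chromosomes, Top2a a topoisomerase that untangles DNA in dividing cells, and Ccnb1 cyclin B1, which with its kinase drives entry into mitosis. All 3 are genes of the G2 and M phases, and promoters of such genes commonly carry CCAAT boxes, bound by the factor NF-Y, and a cell cycle homology element of a few bases close to the start. Mki67 (ENSMUSG00000031004) lies on the minus strand of chromosome 7 (135689784 to 135716361), Top2a (ENSMUSG00000020914) on the minus strand of chromosome 11 (98992943 to 99024189) and Ccnb1 (ENSMUSG00000041431) on the minus strand of chromosome 13 (100778650 to 100786570), in GENCODE M21 on GRCm38. Their upstream sequences are shown because all 3 hold several of these elements, while Ccnb1 was highest in other places than Mki67 and Top2a (given below). The sequences are RefSeq's for GRCm38.p6, read along the gene's strand from chr7:135716380-135716629 (Mki67), chr11:99024190-99024439 (Top2a), chr13:100786571-100786736 (Ccnb1, farther part) and chr13:100786511-100786540 (Ccnb1, labelled nearest the start). The last of these is the 30 bases around the marked Ccnb1 motif nearest the start, at positions -54 to -25. RefSeq starts Ccnb1 farther into the gene than GENCODE M21 does. The bases between the 2 stretches, and those from position -25 to the start, are not printed. Capitals mark the CCAAT box, the element TTTGAA and its forms with other middle bases, TTCGAA or else TTTAAA, on either strand, so that CCAAT on the opposite strand appears as its reverse complement.
Mki67: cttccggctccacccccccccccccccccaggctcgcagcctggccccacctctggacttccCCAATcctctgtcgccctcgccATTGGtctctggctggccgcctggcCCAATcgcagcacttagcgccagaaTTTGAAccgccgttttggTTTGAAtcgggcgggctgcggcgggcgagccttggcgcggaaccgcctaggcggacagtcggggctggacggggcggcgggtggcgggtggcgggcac
Top2a: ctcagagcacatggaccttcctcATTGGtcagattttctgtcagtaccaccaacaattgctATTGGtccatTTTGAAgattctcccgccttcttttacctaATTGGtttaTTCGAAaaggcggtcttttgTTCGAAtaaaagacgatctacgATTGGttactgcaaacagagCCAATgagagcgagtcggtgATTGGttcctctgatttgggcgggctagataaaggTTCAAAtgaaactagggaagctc
Ccnb1, farther part: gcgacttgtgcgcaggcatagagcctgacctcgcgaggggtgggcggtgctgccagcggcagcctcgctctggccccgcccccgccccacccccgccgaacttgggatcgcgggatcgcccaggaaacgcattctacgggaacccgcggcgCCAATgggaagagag
Ccnb1, nearest the start: agcggcccggggTTTAAAcctaagcccggc

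In the 250 bases before the start, Mki67 held 3 CCAAT and 2 TTTGAA. Top2a held 6 CCAAT, 2 TTTGAA and 2 TTCGAA, and Ccnb1 held 2 CCAAT, 1 of them in the unprinted bases, and 1 TTTAAA. Of 32851 RefSeq promoters of that length, 33.8% held CCAAT, 16.0% TTTGAA, 1.34% TTCGAA and 12.1% TTTAAA at least at 1 position. The combination of 2 or more CCAAT with any of the other 3 motifs was present in 2.54% of promoters. TTTGAA and TTCGAA differ from each other at 1 base and their matches did not overlap here. Among the other members with a promoter in that table, Sox4 held 4 CCAAT and 1 TTTAAA, Sox11 held 1 CCAAT and 1 TTTGAA, Eomes held 2 CCAAT, and the 2 listed promoters of Dcx held 1 and 0 CCAAT. These are matches of letters and not sites of binding. Igfbpl1 was not matched.

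Top2a transcripts were few, and a larger share of them than of all transcripts lay on ventricle wall spots. Of its 161 UMIs, 16.8% fell on ventricle wall spots, against the 2.84% of all UMIs that these spots held. In the ventricle wall, Top2a measured 4.74 and 4.75 CPM at 6 months, 0 and 1.18 at 18 months and 0 and 2.54 at 21 months, from 0 to 11 UMIs each. Elsewhere the pooled level was 0.314 CPM. The ventricle wall was above the rest in 4 of 6 sections, and the 11 UMIs of young 1 lay in 4 spots. With every spot thinned to the same depth, the share of spots with a Top2a UMI was higher at the ventricle wall in 3 of 6 sections. Pooled over sections this share was 1.58% against 0.346%. In young 1 it was 0 of 58 ventricle wall spots, against 0.653% of other spots. Top2a did not pass the filter on low counts, and neither did Mki67, Igfbpl1, Ccnb1 or Eomes. In the fit without that filter, planned as an alternative, Top2a was higher at the ventricle wall than elsewhere by 2.68 on the log2 scale (edgeR adjusted p = 1.88e-05), and leaving out any 1 section gave 2.41 to 2.92 with the call held. In the dentate gyrus the same fit gave 0.20 (adjusted p = 0.903), from 5 UMIs over 6 sections.

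Mki67 was sparser still, with 112 UMIs in 100 spots. Ventricle wall spots held 11.6% of its UMIs, at 3.44 and 1.19 CPM at 6 months, 0.611 and 0.785 at 18 months and 0 in both old sections. The 0 UMIs there allow up to 1.66 CPM in old 1 and 1.88 CPM in old 2 by the 95% limit, so the absence is not shown. Without the filter on low counts, Mki67 was higher at the ventricle wall by 2.03 (edgeR adjusted p = 0.00954), but without young 1, which held 8 of the 13 UMIs there, the value was 1.01 (0.357). In the dentate gyrus it had 5 UMIs, a difference of 0.71 (adjusted p = 0.692).

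Ccnb1 had a different distribution from the other G2 and M phase members. It had 1963 UMIs, and only 1.07% of them fell on ventricle wall spots and 1.07% on dentate gyrus spots. Its ventricle wall level was 3.87 and 2.38 CPM at 6 months, 0.611 and 0.785 at 18 months and 1.35 and 1.02 at 21 months. Elsewhere it was 7.29 and 6.80 at 6 months, 3.48 and 3.51 at 18 months and 3.57 and 2.78 at 21 months. In every section the ventricle wall and the dentate gyrus lay below the rest, from 0 to 9 UMIs per place and section. Of the genes that passed the filter, 35.5% lay below at the ventricle wall in all 6 sections and 13.0% in the dentate gyrus. With each spot thinned to 10000 UMIs, more dentate gyrus spots than other spots had a Ccnb1 UMI in middle 2 (3.08% against 2.73%) and old 2 (3.80% against 2.17%). These shares rest on 2 and 3 dentate gyrus spots. In the fit without the filter, Ccnb1 was lower at the ventricle wall by -1.54 (edgeR adjusted p = 0.000123) and in the dentate gyrus by -1.48 (0.00076), the opposite direction to Mki67 and Top2a at the ventricle wall. GENCODE M21 also lists a processed pseudogene, Ccnb1-ps (chromosome 7, 42105899 to 42107185), which is not among the genes counted. Whether any of its reads were counted as Ccnb1 was not tested.

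Igfbpl1 encodes a secreted protein related to the insulin-like growth factor binding proteins and is known as a marker of neuroblasts. It lies on the minus strand of chromosome 4 (45809468 to 45826923). It had 280 UMIs, of which 22.5% were in ventricle wall and 7.14% in dentate gyrus spots. At the ventricle wall it measured 10.3 and 3.57 CPM at 6 months, 3.67 and 5.88 at 18 months and 3.59 and 2.04 at 21 months, above the rest of the same section in 6 of 6, as were 29.9% of the genes that passed the filter. Elsewhere it ran from 0.277 to 0.760 CPM. Without the filter on low counts, the difference was 3.25 (edgeR adjusted p = 4.31e-05), and 3.08 to 3.43 when each section was left out in turn.

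In the dentate gyrus, Igfbpl1 came almost wholly from the young 2 section. That section had 18 UMIs there, or 5.84 CPM (95% interval 3.46 to 9.23), and the other 5 had 0 or 1. Young 1 had 0 UMIs in its 33 dentate gyrus spots, which allows up to 4.12 CPM, so the young sections cannot be compared with each other. Middle 2 and old 1 had 0 UMIs, allowing up to 2.41 and 1.43 CPM, and middle 1 and old 2 had 0.398 and 0.562 CPM. Over all sections Igfbpl1 was not called in the dentate gyrus (1.60, edgeR adjusted p = 0.133), and without young 2 the value was -1.08.

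Sox4 and Sox11 are closely related transcription factors of the SoxC group, which act in newly formed neurons. Sox4 (ENSMUSG00000076431, chromosome 13, 28948919 to 28953713, minus strand) was highest at the ventricle wall. There it measured 34.0 and 30.9 CPM at 6 months, 23.8 and 30.6 at 18 months and 24.7 and 16.3 at 21 months. Each of these values was above the rest of the same section, where the level was 8.97 to 14.4 CPM. Of all tested genes, 29.9% lay above the rest at the ventricle wall in all 6 sections. The difference of Sox4 was 1.30 on the log2 scale (SE 0.13, edgeR adjusted p = 8.88e-08). In the dentate gyrus Sox4 measured 10.1 and 20.1 CPM at 6 months, 17.9 and 22.9 at 18 months and 14.4 and 12.4 at 21 months, above the rest in 5 of 6 sections but not in young 1. The difference there was 0.56 (SE 0.15, adjusted p = 0.00583), and without the filter on low counts the call was lost when young 2 (0.0637) or middle 2 (0.0662) was also left out.

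Sox11 (ENSMUSG00000063632, chromosome 12, 27334264 to 27342574, minus strand) was highest in the dentate gyrus. It measured 16.8 and 37.3 CPM there at 6 months, 33.0 and 20.3 at 18 months and 31.4 and 21.3 at 21 months, each above the rest of its section, as 16.4% of all tested genes were. The difference was 1.14 (SE 0.19, edgeR adjusted p = 0.000252). At the ventricle wall the sections differed, with 18.9 and 19.0 CPM at 6 months, 6.72 and 16.9 at 18 months and 4.94 and 7.12 at 21 months. In 3 sections the ventricle wall lay above the rest and in 3 below it. The mean difference was 0.01 (SE 0.23, adjusted p = 0.970), so no overall difference was detected. Both young sections were among the 3 above, and both old sections among the 3 below.

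Dcx (ENSMUSG00000031285, chromosome X, 143855842 to 143933311, minus strand) was lower in both places than in the rest of the section. Ventricle wall levels were 6.03 and 7.13 CPM at 6 months, 1.83 and 6.67 at 18 months and 2.70 and 4.58 at 21 months. Dentate gyrus levels were 0 and 6.82 at 6 months, 3.98 and 3.27 at 18 months and 5.82 and 2.81 at 21 months. Elsewhere Dcx stayed between 8.01 and 10.3 CPM, above both places in all 6 sections. Of all tested genes, 35.5% lay lower at the ventricle wall in all 6 sections and 13.0% in the dentate gyrus. The differences were -0.89 at the ventricle wall (SE 0.24, edgeR adjusted p = 0.00330) and -1.11 in the dentate gyrus (SE 0.25, adjusted p = 0.00175). Without the ventricle wall spots that also hold choroid plexus transcripts, the first was -0.55 and was not called (0.219). In the spots that remained, Dcx measured 9.78 CPM in young 1 and 13.6 in young 2, from 5 and 9 UMIs. These were above the rest of those sections (9.32 and 9.56). In the middle and old sections it was below the rest, at 3.30 to 6.91. With spots thinned as above, more ventricle wall than other spots had a Dcx UMI in young 1 (12.1% against 7.88%). So did dentate gyrus spots in young 2 (10.0% against 8.35%). In the remaining sections each place had the lower share.

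Eomes (chromosome 9, 118478212 to 118486132, plus strand), the transcription factor of intermediate progenitors also called Tbr2, had 24 UMIs in 21 spots, too few to compare sections. It had 4 UMIs at the ventricle wall of young 1, 1 in that of old 2 and none in the other 4, and 3 UMIs over all dentate gyrus spots. Without the filter it was called at the ventricle wall (2.97, edgeR adjusted p = 0.0122), but not without young 1 (1.18, 0.677). An antisense gene, Gm33460, overlaps Eomes and is counted separately.

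In all, the fit with the filter tested 3 members and called Sox4 and Dcx at the ventricle wall and all 3 in the dentate gyrus. Of the 12687 genes tested, 69.7% and 42.7% were called in these places. The fit without it called 7 of 8 at the ventricle wall, 5 higher and 2 lower, where 46.1% of 23985 genes were called, and 4 of 8 in the dentate gyrus, where 22.8% were. Without the filter the median of all genes lay at -0.22 at the ventricle wall and -0.17 in the dentate gyrus, against -0.00 and 0.01 with it. From the fit with the filter to that without, Sox4, Sox11 and Dcx went from 1.30, 0.01 and -0.89 to 1.15, -0.13 and -1.03 at the ventricle wall. In the dentate gyrus they went from 0.56, 1.14 and -1.11 to 0.52, 1.10 and -1.15. The member values above are not corrected for these medians. The plot of levels by place shows how far single sections differ.

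**Figure D1:**
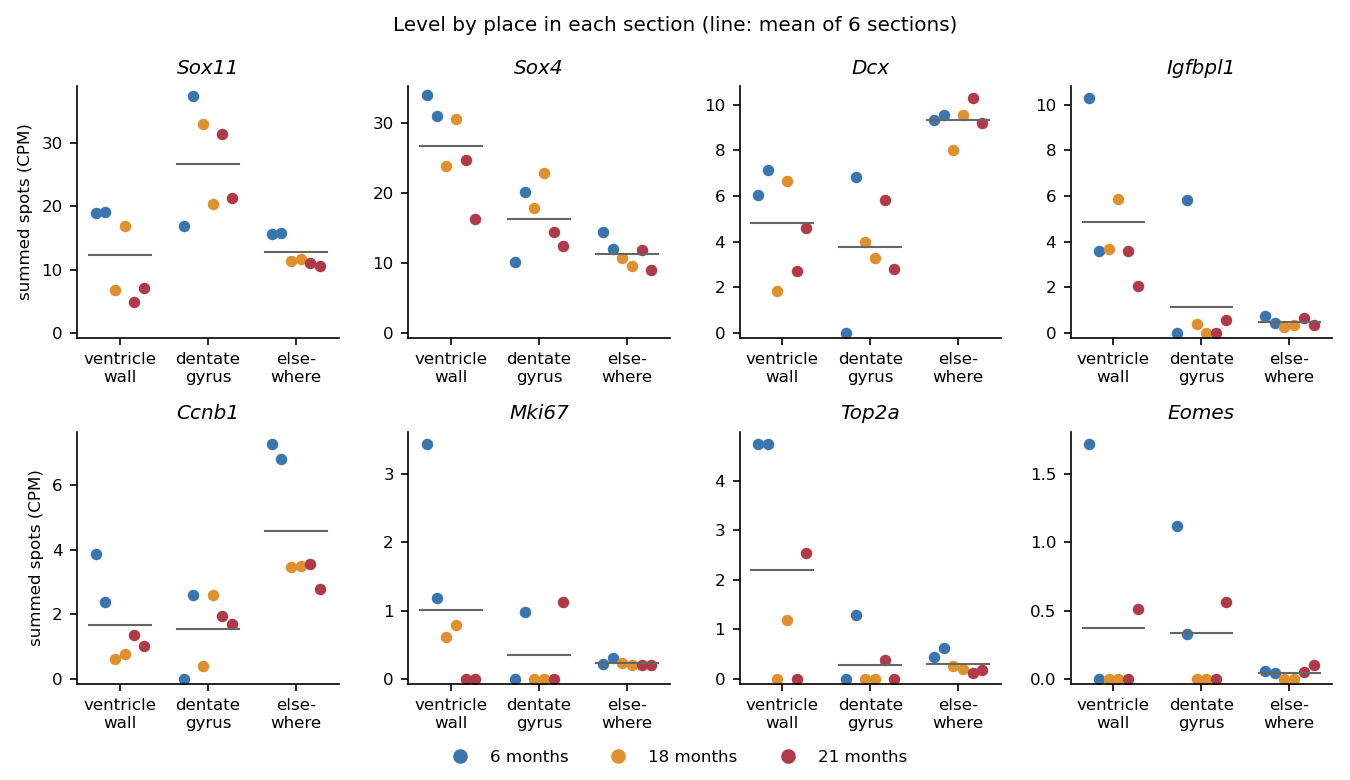
Level of each of the 8 genes (CPM, linear axes) in ventricle wall spots, dentate gyrus spots and all other spots, 1 point per section coloured by age, with a line at the mean of 6 sections. Sox4 and Igfbpl1 were above the rest of the section at the ventricle wall in 6 of 6 sections, Sox11 was so in the dentate gyrus, and Dcx and Ccnb1 were below it in both places. Of the genes that passed the filter, 29.9% were above the rest at the ventricle wall in all 6 sections and 16.4% in the dentate gyrus, while 35.5% and 13.0% were below it.

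Ventricle wall spots also held choroid plexus transcripts, the tissue that hangs in the ventricles and makes cerebrospinal fluid. Of the 493 spots, 276 were also among the 3% with the largest share of choroid plexus genes (Ttr, Folr1, Kl and others) and 217 were not. Igfbpl1 measured 6.89 CPM (95% interval 5.23 to 8.90) in the former and 1.26 CPM (0.410 to 2.95) in the latter. Top2a measured 3.09 CPM (2.02 to 4.52) and 0.252 CPM (0.00639 to 1.41). The ventricle wall UMIs of both genes came largely from spots with ependymal and choroid plexus transcripts together. In each section Igfbpl1 was higher in the former (3.22 to 12.1 CPM) than in the latter (0 to 3.91 CPM), and young 1 held 22 of the 58 UMIs in the former. Top2a had 0 UMIs in both classes in middle 1 and old 1. Young 1 and young 2 held 11 and 7 of its 26 UMIs in the former. In the 226 choroid-rich spots outside the ventricle wall set, Igfbpl1 had 5 UMIs (1.03 CPM, 0.334 to 2.40). Top2a had 10 there (2.06 CPM, 0.987 to 3.79), of which 8 were in young 2.

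Pooled over sections, Sox4 measured 27.3 CPM (23.9 to 31.1) with and 26.5 CPM (21.7 to 32.1) without a high share of choroid plexus genes. The sections were not alike. In middle 2 the level was 38.1 CPM with and 17.9 CPM without (61 and 17 UMIs), while in the other 5 sections it was lower with than without, as in young 1 at 32.0 and 41.1 CPM. When the 276 spots were left out and no filter was used, Igfbpl1 gave 0.63 (edgeR adjusted p = 0.897), Top2a -0.22 (0.951) and Mki67 1.66 (0.305), while 25.8% of all genes were called. The remaining spots were shallower, with a median of 16896 UMIs against 28685, and young 1 kept only 16 of them, under the 20 spots a sum needed. Whether choroid plexus cells, the wall beside it or the depth of the spots gives these values was not tested.

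**Figure D2:**
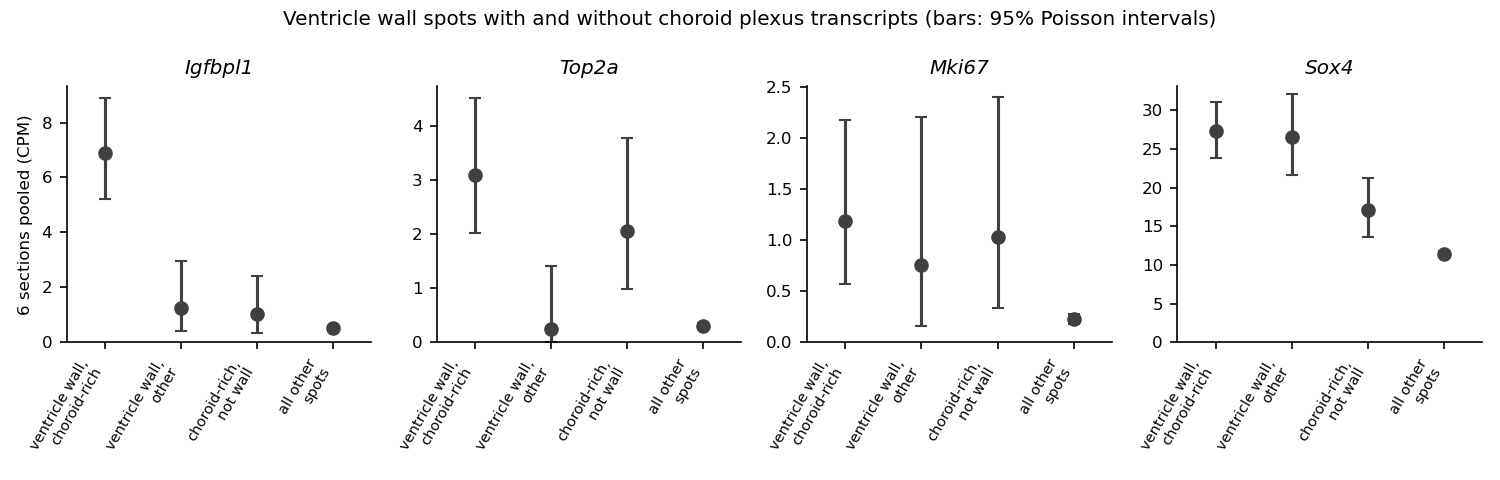
Level (CPM, linear axes from 0) of Igfbpl1, Top2a, Mki67 and Sox4 with the 6 sections pooled, in ventricle wall spots with and without a high share of choroid plexus genes, in choroid-rich spots outside that set and in all other spots; bars are 95% Poisson intervals. In the pooled counts Igfbpl1 and Top2a were higher in the first class than in the second, with intervals that do not overlap. These intervals leave out the spread between sections, and Top2a had 0 UMIs in both classes in middle 1 and old 1. The intervals of Mki67 overlapped, and Sox4 was at 27.3 and 26.5 CPM.

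Other genes of the same pathway were read in the same fits, from lists that hold none of the 8. At the ventricle wall 9 of 15 tested genes of neural stem cells and progenitors were higher and 1 was lower, with a median of 0.61 against -0.00 over all genes. The 3 largest were Thbs4, a secreted thrombospondin of ventricular astrocytes (2.68), Nes, the intermediate filament nestin (1.53), and Hes6, a regulator of neurogenesis (1.34). The lower gene was Hes5, a target of Notch signalling (-0.46). Of 25 neuroblast and immature neuron genes, 6 were higher and 10 lower, with a median of -0.25. The highest were Cd24a, a surface protein of neuroblasts and also of ependymal cells (4.53), St8sia2, which makes polysialic acid (2.65), and Fabp7 (0.87). The lowest were Bhlhe22 (-1.90), Islr2 (-1.59) and Elavl2 (-1.54), which mature neurons also express.

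Among S phase genes 6 of 11 were higher and 3 lower at the ventricle wall (median 0.46). Mcm6 (1.26) and Mcm4 (1.01), subunits of the helicase that unwinds DNA for replication, were among the former. Ccne1, cyclin E1, was lower by -1.96, Fen1 by -0.34 and Slbp by -0.29. Of 28 further G2 and M phase genes only 4 passed the filter. Nuf2, a kinetochore protein, was higher by 3.62 and Smc4, a condensin subunit, by 1.10, while Racgap1 was lower by -0.49. These proliferation genes thus did not all lie in 1 direction at the ventricle wall.

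In the dentate gyrus 1 of 15 stem cell and progenitor genes was higher, Hopx (1.10), and 5 were lower, led by Insm1 (-1.31), Lpar1 (-1.08) and Hes5 (-0.74). Of 25 neuroblast and immature neuron genes 6 were higher and 9 lower. Bhlhe22 (2.11), Neurod1 (1.60) and Nfib (1.33), transcription factors that granule neurons keep, were highest, and the interneuron genes Dlx6 (-1.74) and Dlx5 (-1.68) and the growth cone gene Gap43 (-1.42) were lowest. Of 11 S phase genes 3 were higher (Mcm6 by 2.45, Mcm7 by 0.63, Dut by 0.38) and Slbp was lower (-0.74). Nuf2 (1.06) and Smc4 (0.65) were higher here too. All of these calls are edgeR adjusted p under 0.05, the largest printed being that of Fen1 at 0.0493.

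The sections were also divided into 20 clusters of spots with like transcripts, from genes that included neither the 8 members nor the pathway lists. Clusters are called by their leading genes. Sox4, Igfbpl1 and Top2a were all highest in the cluster led by Ttr, Enpp2 and Ecrg4, which holds ventricle and choroid plexus genes together. Sox4 measured 27.1 ± 7.95 CPM (SD, n = 6 sections) there, Igfbpl1 5.69 ± 2.64 and Top2a 2.69 ± 2.59. Igfbpl1 had 0 UMIs in the clusters led by Nrgn, Vxn and Slc17a7 and by Pvalb, Gad1 and Six3. Sox4 was next highest in the cluster led by Necab2, Ttr and Zic1 (22.4 ± 6.74, n = 5). It was lowest in the one led by Nptxr, Lypd1 and Syn2 (7.16 ± 2.77, n = 6).

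Sox11 was highest in the cluster led by Ddn, Adcy1 and C1ql2, at 28.5 ± 7.06 CPM (SD, n = 5 sections with 20 or more spots). The cluster led by Hap1, 6330403K07Rik and Ahi1, genes of the hypothalamus, followed with 26.0 ± 3.23 (n = 6), and then that led by the striatal genes Penk, Ppp1r1b and Pde1b with 20.2 ± 3.97. The lowest values were 5.49 ± 1.88 and 5.21 ± 1.41 in the clusters led by Nrgn, Egr1 and Camk2n1 and by Nrgn, Vxn and Slc17a7. Over the whole series 91.0% of Sox11 UMIs, and 94.3% of all UMIs, were outside the ventricle wall and dentate gyrus spots.

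Dcx was highest in an isocortex cluster, that led by Nrgn, Egr1 and Camk2n1 (16.7 ± 2.19 CPM, SD, n = 6), in which Sox11 was near its lowest. Its section values there were 16.2 and 19.7 at 6 months, 13.0 and 17.2 at 18 months and 17.5 and 16.8 at 21 months. It was lowest in the cluster led by the thalamic genes Prkcd, Pcp4 and Tcf7l2 (1.70 ± 0.399), with 6 to 12 UMIs per section. These ranges do not overlap.

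Ccnb1 was highest in clusters led by genes of excitatory neurons. It reached 21.4 ± 11.4 CPM (SD, n = 6) in the cluster led by Nptxr, Lypd1 and Syn2, 12.7 ± 4.45 in that led by Slc17a7, Nptxr and Hpcal4, and 8.87 ± 5.44 in that led by Vxn, Nrgn and Egr1. In the first of these 38.7% of spots had a Ccnb1 UMI. It was lowest in the cluster led by Pmch, Resp18 and Nnat (0.727 ± 0.541). In the same order these clusters held 1, 3 and 11 UMIs of Top2a and 1, 2 and 9 of Mki67, ranking 18, 19 and 10 of 20 for Top2a and 13, 18 and 8 for Mki67. Ccnb1 was thus highest in other clusters than Mki67 and Top2a, which had the same 2 highest clusters, as given next.

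Mki67 was highest in the white matter cluster led by Apod, Trf and Mobp, at 1.24 ± 0.660 CPM (SD, n = 6), with 21 UMIs, and Top2a was second highest there, at 1.62 ± 1.35 with 28 UMIs. Mki67 was second highest in the cluster led by Ttr, Enpp2 and Ecrg4 (1.00 ± 1.43 CPM, 10 UMIs, 7 of them in young 1), where Top2a was highest. In the white matter cluster summed microglia markers (977 CPM) and stem cell and progenitor genes (785 CPM) were the highest of the 20 clusters. Summed oligodendrocyte precursor markers were 187 CPM there, below 246 CPM in the cluster led by Tcf7l2, Slc17a6 and Ntng1 and 191 CPM in that led by Necab2, Ttr and Zic1. The part of these lists in the Mki67 and Top2a values was not tested. For every member, each cluster overlapped in range with its next neighbour in the order, in all 19 neighbouring pairs.

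**Figure D3:**
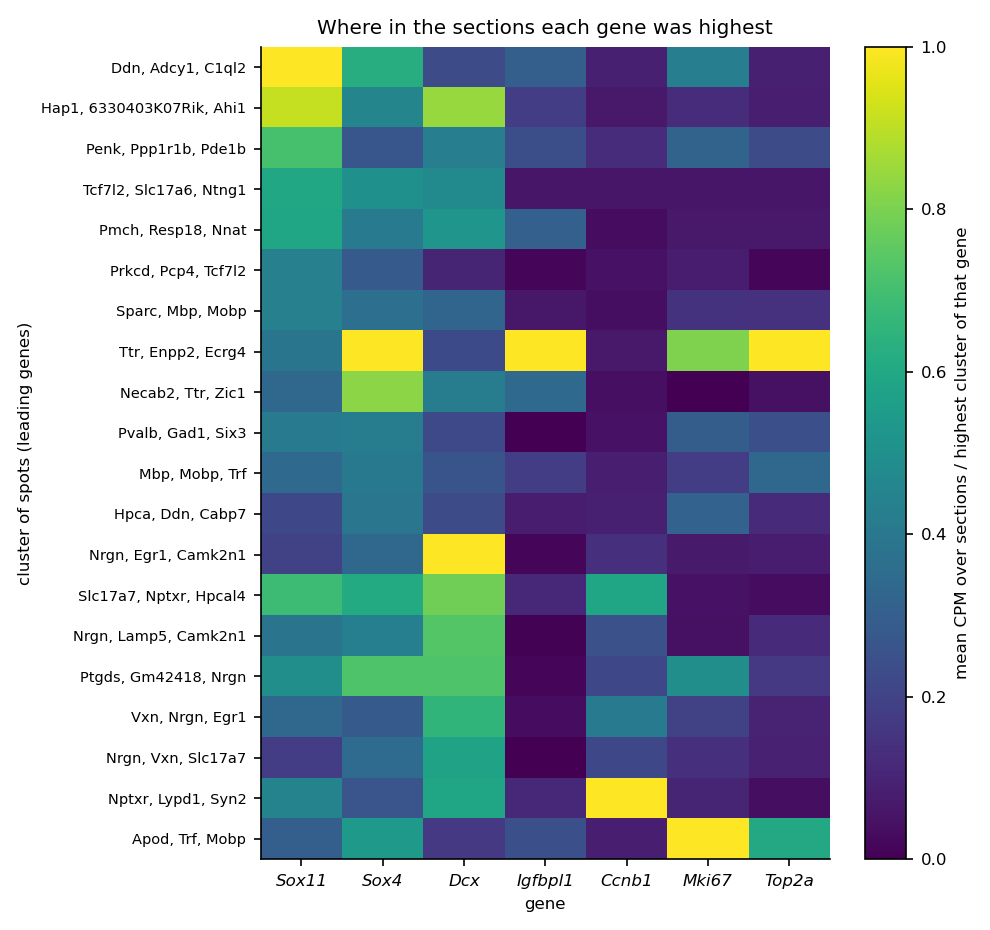
Mean CPM over sections of 7 of the genes in the 20 clusters, each gene divided by its highest cluster (colour scale 0 to 1); Eomes is left out for its 24 UMIs. Sox4, Igfbpl1 and Top2a peak in the cluster led by Ttr, Sox11 in that led by Ddn, Mki67 in that led by Apod, Trf and Mobp, Ccnb1 in that led by Nptxr, Lypd1 and Syn2 and Dcx in that led by Nrgn, Egr1 and Camk2n1.

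Likeness of pattern over the 20 clusters is given as Pearson r of log2(CPM + 1) with no test. Clusters come from the same 6 sections and differ in depth, and the sparse members have few UMIs in most of them. Among pairs that include Sox11, Sox4, Dcx or Ccnb1, the highest values were 0.562 for Sox4 with Igfbpl1 and 0.530 for Ccnb1 with Dcx. Sox4 had r = 0.415 with Top2a, 0.390 with Mki67 and 0.183 with Sox11. Sox11 had 0.0565 with Dcx, and Dcx had -0.474 with Mki67 and -0.424 with Top2a. Ccnb1 had -0.145 with Mki67 and -0.243 with Top2a. Among all genes of at least 5 CPM, Faap20 (r = 0.819), Ankrd6, Grik2, Zfp950 and Fam118a were most like Sox11, and Tram1 (0.829), Twsg1, Pcolce, Iqgap1 and Tcp11l2 most like Sox4. Pitpnm3 (0.899), Gramd4, Nap1l1, Cdh22 and Abt1 were most like Dcx, and Bmp3 (0.903), Ocel1, Rspo2, Dtl and Ccn3 most like Ccnb1. Among the members only Sox11, Sox4 and Dcx reached that 5 CPM and could be listed, and none of them was in another member's closest 5.

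Within spots some of the sparse members did occur together. Each spot was thinned to 10000 UMIs to make depths equal, which left out 1398 shallower spots. Mki67 and Top2a shared 4 spots, where the product of their shares gives 0.181. Ccnb1 shared 9 spots with Top2a against 2.45 and 4 with Mki67 against 1.68. Other pairs fell below the product, with Dcx and Top2a at 1 against 4.55 and Igfbpl1 and Mki67 at 0 against 0.266. Top2a also shared 6 spots with Sox11 against 7.38 and 5 with Sox4 against 6.73. Igfbpl1 shared 22 spots with Sox11 against 11.8, while Sox11 and Dcx shared 152 against 149. Spots that share a region share genes, so these counts are descriptions.

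Between ages, whole-section levels of 6 of the 8 members were lower in all 4 older sections than in both young ones, as 7.02% of 17673 tested genes were. The exceptions were Dcx and Eomes. Because the genes were picked on this contrast, nothing is read from that count. In a section, fewer cells of a type and less RNA per cell cannot be told apart.

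Ccnb1 measured 7.10 and 6.54 CPM at 6 months, 3.32 and 3.40 at 18 months and 3.43 and 2.69 at 21 months, from 164 to 546 UMIs each. The group means were 6.82 ± 0.398, 3.36 ± 0.0601 and 3.06 ± 0.525 (SD, n = 2 each), a difference between old and young of -1.20 on the log2 scale. At equal depth, 5.80% and 5.53% of young spots had a Ccnb1 UMI, 2.74% and 2.66% of middle and 2.63% and 2.15% of old spots. The middle sections thus lay near the old ones.

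Top2a measured 0.559 and 0.748 CPM at 6 months, 0.249 and 0.226 at 18 months and 0.130 and 0.246 at 21 months, from 43 and 58 UMIs to 9 and 15. The group means were 0.653 ± 0.133, 0.238 ± 0.0164 and 0.188 ± 0.0819 (SD, n = 2 each), and the difference between old and young was -1.85. It was -1.45 without old 1 and -2.36 without old 2. Mki67, with 13 to 27 UMIs a section, measured 0.312 and 0.348 CPM at 6 months, 0.236 and 0.213 at 18 months and 0.188 and 0.230 at 21 months, a difference of -0.71. Its counting intervals overlapped across all 6 sections.

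Sox11 measured 15.7 and 16.8 CPM at 6 months, 11.9 and 12.1 at 18 months and 11.6 and 10.8 at 21 months. The young mean was 16.2 ± 0.755 and the old mean 11.2 ± 0.613 (SD, n = 2 each), and the difference between old and young was -0.58. At equal depth, 14.3% and 13.9% of young spots, 12.7% and 11.3% of middle and 10.8% and 10.4% of old spots had a UMI. Sox4 measured 15.0 and 12.7 CPM at 6 months, 11.2 and 10.5 at 18 months and 12.4 and 9.30 at 21 months. Young 2 and old 1 lay close together, and the difference of -0.40 became -0.22 without old 2 and -0.62 without old 1.

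Igfbpl1 measured 1.04 and 0.735 CPM at 6 months, 0.354 and 0.545 at 18 months and 0.724 and 0.410 at 21 months. Old 1 was thus within counting error of young 2, and the difference of -0.69 between old and young became -0.35 without old 2 and -1.16 without old 1. Dcx measured 9.11 and 9.40 CPM at 6 months, 7.75 and 9.33 at 18 months and 9.85 and 8.86 at 21 months, with overlapping groups and a difference of -0.03. Eomes had 9 and 4 UMIs at 6 months, 0 in each section at 18 months and 3 and 8 at 21 months. The 0 UMIs of the middle sections allow up to 0.0484 and 0.0490 CPM.

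No call of a member between ages is given, because the genes were picked on these sections, and the contrasts of old and of middle with young share the young sections. When every section gave the same number of spots from each cluster, the differences between old and young were -1.26 for Ccnb1, -1.99 for Top2a, -0.56 for Sox11 and 0.04 for Dcx. They were -0.45 for Sox4, -0.52 for Igfbpl1 and -0.59 for Mki67, against -0.40, -0.69 and -0.71 with all spots. Median UMIs per spot were lower in both old sections, as given above. Hypothalamic marker sums ran from 625 to 2107 CPM over sections. Young 1 had 5 spots in the cluster led by Ddn, Adcy1 and C1ql2, against 70 to 106 in the other sections. It had 38 spots in the hippocampal cluster led by Hpca, Ddn and Cabp7, against 95 to 177. Thalamic marker sums were 462 CPM in young 1 and 612 to 816 CPM in the others. Whether the plane of section varied was not tested. The part of depth and of tissue content in the differences was not tested beyond the equal numbers of spots.

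**Figure D4:**
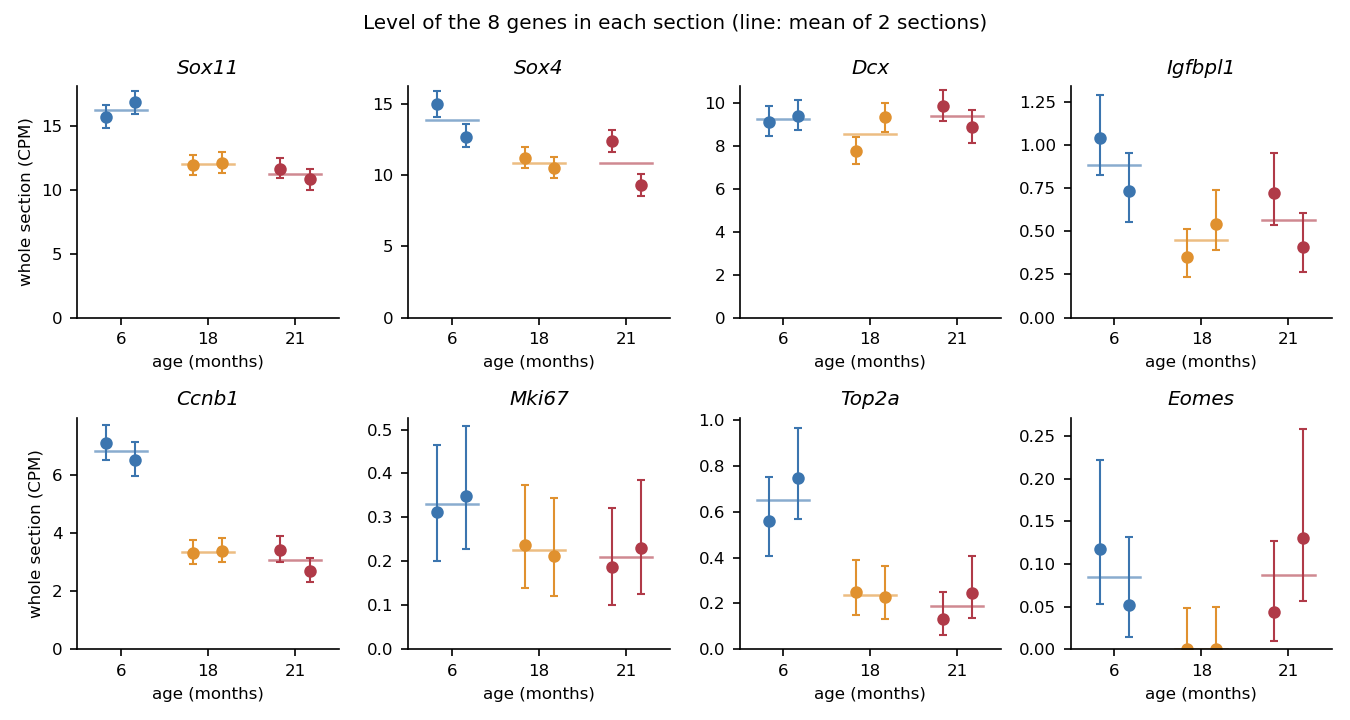
Whole-section level of each gene (CPM, linear axes from 0) by age in months, 1 point per section with its 95% Poisson interval and a line at the mean of 2 sections. The older sections lie below both young ones for 6 genes, with Ccnb1 at 2.69 to 3.43 CPM against 6.54 and 7.10, while the groups of Dcx and Eomes overlap.

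Most Ccnb1 UMIs came from clusters in which its level was lower at the older ages. In the cluster led by Vxn, Nrgn and Egr1 it measured 12.5 and 18.3 CPM at 6 months, 6.56 and 5.41 at 18 months and 5.92 and 4.46 at 21 months. In that led by Nrgn, Lamp5 and Camk2n1 it measured 9.60 and 10.3, 3.04 and 2.98, and 3.86 and 2.27 in the same order. In that led by Slc17a7, Nptxr and Hpcal4 it measured 19.7 and 15.8, 11.4 and 10.4, and 11.9 and 6.93. All older sections were below both young ones in these 3.

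The cluster with the highest Ccnb1 mean behaved otherwise. In that led by Nptxr, Lypd1 and Syn2, young 1 had 39.7 CPM in 42 spots and young 2 had 7.16 CPM in 111 spots, the highest and the lowest of the 6 sections, with 12.1 to 26.0 CPM in the others. Of the 12 clusters with 20 or more spots in every section and at least 30 Ccnb1 UMIs, all older sections lay below both young in 9. Sox11 did so in 11 of 18, Sox4 in 8 of 18 and Dcx in 1 of 17. Over all pairs of a gene and a cluster with as many UMIs this was so in 6.10%, which is printed for scale and not as a test.

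Sox11 was also lower at older ages in a white matter cluster. In the cluster led by Apod, Trf and Mobp it measured 15.1 and 14.2 CPM at 6 months, 5.19 and 6.89 at 18 months and 4.52 and 5.90 at 21 months, from 12 to 44 UMIs each. In the hypothalamic cluster led by Hap1, 6330403K07Rik and Ahi1 it measured 29.7 and 27.1, 27.8 and 27.5, and 21.6 and 22.4, so that the middle sections lay with the young. In the cluster led by Ttr, Enpp2 and Ecrg4 it measured 17.0 and 17.2, 5.87 and 16.2, and 3.49 and 6.63, with middle 2 beside the young sections and middle 1 beside the old. In the cluster led by Ddn, Adcy1 and C1ql2 young 2 had 37.6, the middle sections 32.7 and 21.2 and the old sections 29.1 and 21.8 CPM, with young 1 too small to use at 5 spots.

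**Figure D5:**
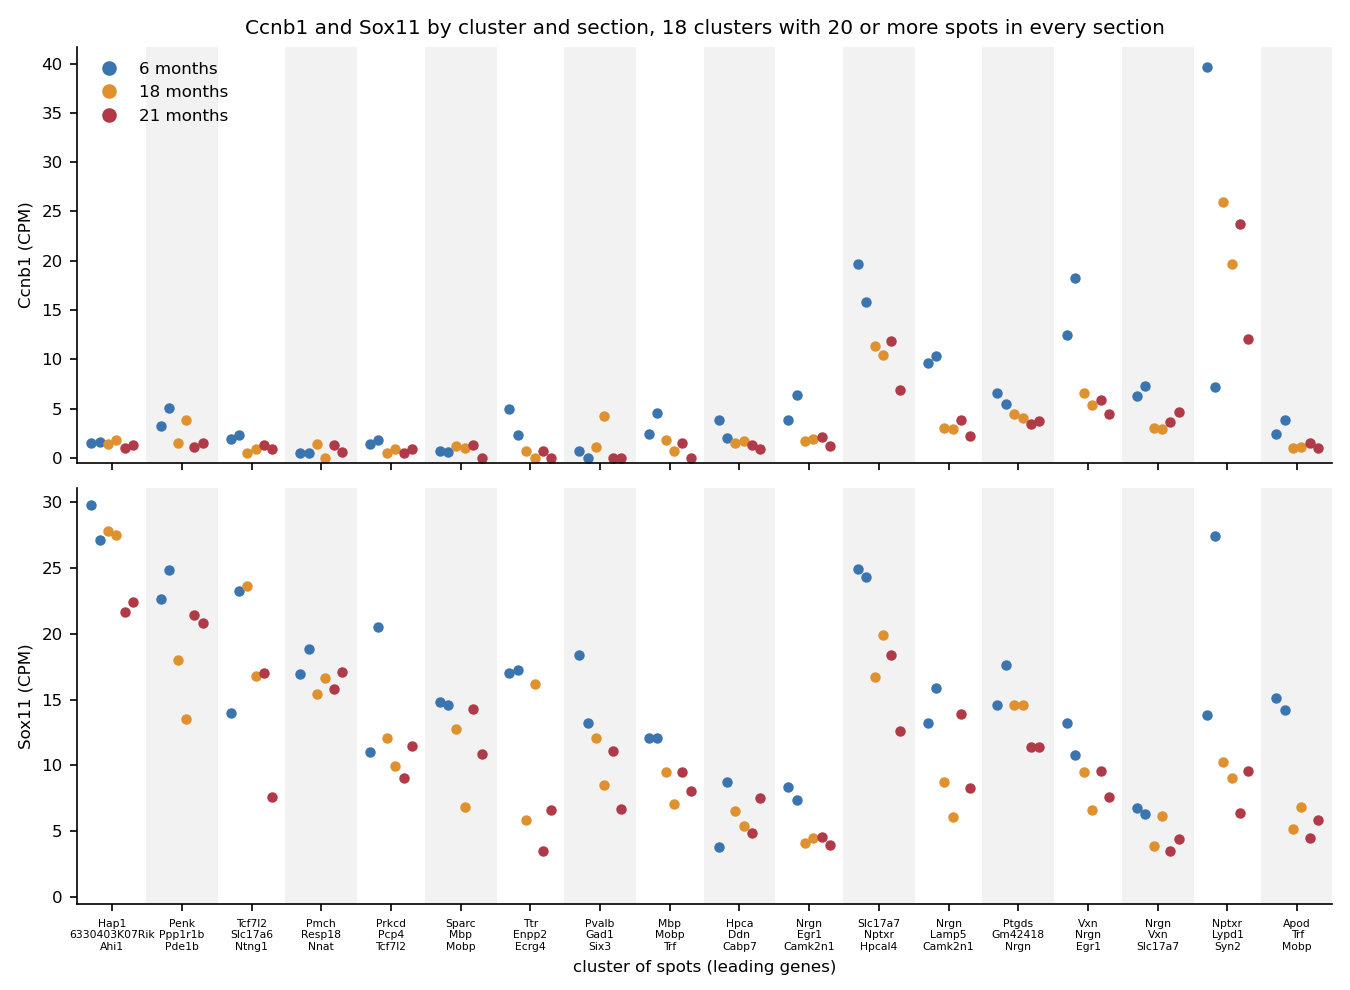
Ccnb1 (upper) and Sox11 (lower) in CPM on linear axes in each section, coloured by age, for the 18 clusters with 20 or more spots in every section. The young points stand above the older ones for Ccnb1 in 9 of the 12 clusters with at least 30 UMIs but are the highest and the lowest in that led by Nptxr, Lypd1 and Syn2; for Sox11 the gap is wide in the cluster led by Apod, Trf and Mobp.

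Over all genes, edgeR called 29 of 17673 (0.164%) in old against young and 12 (0.0679%) in middle against young. None of the other pathway genes was among them, and DESeq2 called 1, Nrep, in old against young. An unadjusted p under 0.05 was found for 12.7% of all genes in old against young and for 7.82% in middle against young. Of 27 tested G2 and M phase genes 23 had a value below 0 for old against young, with a median of -0.33 against -0.00 over all genes, and 9 had such a p. In middle against young 23 were below 0 as well and 8 had such a p. The lists of proliferation genes were chosen with the members' results known, so these counts are descriptions. Summed over that list the level was 43.0 and 44.6 CPM at 6 months, 39.7 and 40.4 at 18 months and 38.6 and 39.1 at 21 months. The stem cell and progenitor genes had a median of -0.02 in old against young (18 genes, 2 of them at an unadjusted p under 0.05), the neuroblast and immature neuron genes -0.09 (28 genes, 2) and the S phase genes -0.02 (22 genes, 3). In middle against young 4, 3 and 3 genes of these lists had such a p. Summed stem cell and progenitor genes ran from 374 CPM in young 1 to 409.6 in old 1, and both old sections lay above both young ones.

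Markers of microglia, the immune cells of the brain, and of oligodendrocyte precursors were read beside these. Summed microglia markers were 278 and 304 CPM at 6 months, 331 and 347 at 18 months and 351 and 389.8 at 21 months, and all 7 genes had a value above 0 for old against young, with 0 called by edgeR, 4 of 7 at an unadjusted p under 0.05, where 12.7% of all genes were, and 2 called by DESeq2, C1qa among them. Oligodendrocyte precursor markers summed to 112 and 126 CPM at 6 months, 111 and 116 at 18 months and 118 and 114 at 21 months, overlapping between ages, with 0 of 8 genes called by edgeR, 4 at an unadjusted p under 0.05 and Gpr17 called by DESeq2. All markers of both lists had UMIs in every section. Their part in the differences of the members was not tested.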

How the data were processed

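Visium libraries of 6 coronal brain sections were read as the authors' deposited UMI count matrices. The file headers name Space Ranger 1.3.1, the submitters' processing notes list version 3.1, and the build is mm10 per the notes. Two-sided edgeR 4.0.16 quasi-likelihood fits (TMM scaling, filterByExpr, R 4.3.3) used section sums with group means for age and 18 sums with section as a block for place. The latter kept sums of at least 20 spots. DESeq2 1.42.0 was an alternative. Spots under 500 UMIs were left out. Clusters came from scanpy 1.11.5 (2000 variable genes, 30 components, 20 neighbours, Leiden resolution 0.8), with the members and pathway genes kept out. Clusters are called by leading genes, and a few genes of the lists and cluster names are not reported here. No spot coordinates were used, so places are defined by transcripts. Positions are those of GENCODE M21, in which 32158 of 32285 gene identifiers were found. Scripts were tested on simulated data.

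The members and the lists were chosen with earlier results of these data known. All 8 members are named, with the 3 called genes of largest change per pathway list, contrast and direction. For members of at least 500 UMIs the 5 genes of most like pattern are named, from genes of mean 5 CPM or more. With 2 sections an age, a p-value measures only the spread between these sections. The choroid plexus spots are those chosen like the ventricle wall spots. Alternatives were other scalings and filters, other shares of spots per list (1.5% and 6%), thinning, slide or replicate number as a block, equal spots per cluster, and each section left out.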

Additional observations from a re-analysis of the deposited data

How the results depend on the processing

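Directions of the members were kept in all alternatives with the filter on low counts, except those of Dcx between ages (-0.11 to 0.04) and Sox11 at the ventricle wall (-0.29 to 0.28 over all alternatives), the latter not called in edgeR. Genes called in old against young (29) were 194 with DESeq2, 113 without the filter, 7 with slide as a block, 7 with only the groups compared, and 6 (without old 2) to 75 (without young 2) when a section was left out, with 7 without middle 1 or middle 2. Those in middle against young (12) were 70 with DESeq2, 58 without the filter, 7 thinned to the smallest total, 3 with slide as a block, 25 with equal spots per cluster, and 1 (without middle 1) to 33 (without young 1), with 2 without middle 2 and 19 without young 2. With the replicate number as a block the counts were 21 and 10. Same-numbered sections correlated in their deviations at 0.123 to 0.472, from only 2 pairs per contrast and with numbers that the labels do not tie to a shared animal or day.

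At the ventricle wall 8837 genes were called, and 5576 without choroid plexus spots. Members called there were 2 of 3 tested, and 7 of 8 without the filter. They were 4 of 5 with 6% of spots per list, 1 of 2 after thinning and 1 of 3 without choroid plexus spots. Genes called in the same order were 8837 of 12687, 11059 of 23985, 9343 of 13450, 5994 of 10286 and 5576 of 12577. Alternatives chosen after seeing the data combined no filter with leaving out a section, which gave 5 to 7, or with leaving out choroid plexus spots, which gave 2 and turned the direction of Top2a (-0.22) and Eomes (-3.02). In the dentate gyrus 5415 genes were called, and 3505 with 6% of spots. All 3 members tested there were called, and 3 to 5 of 8 without the filter as sections were left out, with 5 without old 1. The cause was not tested. Depth limits Eomes, Mki67 and Top2a, whose section totals were 0 to 58 UMIs.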
